A study of Mus musculus with 11 samples.

Results

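MHC class I loading and the immunoproteasome were followed in mouse microglia through 10 genes, namely B2m, H2-K1, H2-D1, Tap1, Tap2, Tapbp, Psmb8, Psmb9, Psmb10 and Nlrc5. They were picked by symbol, and a gene was measured where a RefSeq accession carried by an array probe matched that symbol. Of the 10 genes, 8 were matched and 7 were tested among 19555 genes in all, since Tap2 and Psmb10 had no matched probe (not analysed here) and the only Psmb9 probe did not pass the filter on dim probes. Total RNA had been hybridised to 11 single-colour arrays of 4 groups. A_FACS was adult microglia sorted by flow cytometry (2 arrays) and NB_FACS was sorted newborn microglia (3 arrays), both lysed without culture. NB_Control was newborn microglia shaken off mixed glial flasks and cultured in serum-containing medium without added cytokines (3 arrays). NB_Stim received, in the same medium, the human cytokines TGFbeta, IL34 and CX3CL1, each at 100 ng/mL (3 arrays). All cells came from C57BL/6N brains, newborns of both sexes and adult females. Sorted cells were gated on intermediate CD45 and high CX3CR1, and flask cells had seen conditioned medium of the L-929 line, used as a source of growth factors, before harvest. Isolation, flask growth, culture in serum and time outside the brain therefore changed together between NB_FACS and NB_Control. Age and sex changed together between NB_FACS and A_FACS, and none of these can be told apart. Flask cultures pooled several brains. Replicates were independent by the study's methods, but the labels do not say whether replicates 1 and 2 of a cultured group came from separate cultures. Those pairs lay closest to each other of all replicate pairs, so p-values for cultured groups may reflect in part technical spread.

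Class I molecules show peptides from the cell's own proteins to CD8 T cells. The proteasome cuts those proteins, Tap1 and Tap2 carry the peptides into the endoplasmic reticulum, and tapasin (Tapbp) holds empty heavy chains, such as those from H2-K1 and H2-D1, with their light chain B2m until a peptide fits. Interferons exchange the constitutive catalytic subunits Psmb6, Psmb7 and Psmb5 for Psmb9, Psmb10 and Psmb8, and Nlrc5 is the transactivator that acts at class I promoters. Resting microglia are known for low class I levels, which rise after interferon exposure.

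Heavy chain genes are close relatives in sequence, so the probes behind them are shown first. H2-K1 had 2 probes and H2-D1 had 1. In the lines that follow, capitals mark runs of at least 8 bases that probe MMXS00434 of H2-K1 and probe MMXS29234 of H2-D1 have in common, the longest being 17 bases, and in the line of MMXS08219, of which the first 30 bases are given, the run of 8 that it shares with the H2-D1 probe.
H2-K1 MMXS00434: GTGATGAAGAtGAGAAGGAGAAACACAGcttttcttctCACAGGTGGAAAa
H2-D1 MMXS29234: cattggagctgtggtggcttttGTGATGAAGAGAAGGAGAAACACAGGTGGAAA
H2-K1 MMXS08219: tcctggggaCATTGGAGtgaagttggagat
MMXS00434 also held a run of 25 bases in common with a probe that has no symbol here. Cross-hybridisation between heavy chain transcripts was not tested, and H2-K1 and H2-D1 values are uncertain as to the gene they come from to that extent. The H2-D1 probe also held a run of 17 bases in common with another probe without a symbol. For each of the other 9 member probes, the longest run found in any other probe that was not assigned to the same gene was 15 bases or fewer.

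Promoter windows of RefSeq (GRCm38.p6, 300 bases around the start) were held for 8 of the 10 genes. The 200 bases upstream of 3 starts are printed because these genes differ in how they moved, with capitals for 5 motif cores searched on both strands. The cores were GAAA, any 2 bases and GAAA again (interferon response element), TTCNNNGAA (gamma-activated site, its own reverse complement), GGGNNTTCC (kappaB-like), CCAAT (Y box) and TGACG (X2 box), and no matches overlapped in these 3 stretches.
B2m, chr2:122147487-122147686, plus strand: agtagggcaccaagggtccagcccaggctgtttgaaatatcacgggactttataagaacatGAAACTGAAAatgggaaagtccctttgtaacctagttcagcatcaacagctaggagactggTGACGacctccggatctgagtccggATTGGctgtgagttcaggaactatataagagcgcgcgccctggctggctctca
H2-K1, chr17:34000348-34000547, minus strand: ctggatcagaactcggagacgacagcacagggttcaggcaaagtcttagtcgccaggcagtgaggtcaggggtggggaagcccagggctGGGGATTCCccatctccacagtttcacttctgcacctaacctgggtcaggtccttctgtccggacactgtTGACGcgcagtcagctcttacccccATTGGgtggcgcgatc
H2-D1, chr17:35262894-35263093, plus strand: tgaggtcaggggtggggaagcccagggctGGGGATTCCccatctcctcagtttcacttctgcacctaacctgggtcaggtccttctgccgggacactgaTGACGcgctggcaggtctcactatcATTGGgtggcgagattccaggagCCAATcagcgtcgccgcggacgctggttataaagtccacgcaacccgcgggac
All 3 stretches held TGACG followed by ATTGG, the reverse complement of CCAAT. H2-K1 also had a window around another start, which is not printed. A plus-strand CCAAT lay at position 8 from the printed H2-K1 start, outside the stretch, and at -6 from the other start. Over whole windows, TGACG lay in 5 of 8 member genes and in 20.8% of 32851 windows of all genes, and CCAAT in 6 of 8 and 37.4%. The kappaB-like core was found in the windows of H2-K1 and H2-D1, against 5.82% of all windows. B2m was the member whose window held the interferon response core (3.44% of windows), and Psmb8 the one with TTCNNNGAA (8.3%). The windows of Tap1 and Psmb9 had 275 bases in common, on opposite strands. A match describes letters and not a bound site.

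Whole-array facts touch these values in a few places. Between 66.8% and 80.5% of probes were well above background on an array, the scanner's flag for signal over local noise. Slide 2 held replicate 3 of each newborn group, and slide 1 the other 8 arrays. Of 13 microglial markers 12 were tested, and their summed intensity (arbitrary units, not log) was 280036 to 304785 in A_FACS, 167113 to 191521 in NB_FACS, 39010 to 66407 in NB_Control and 142712 to 153091 in NB_Stim. Erythroid markers (7 of 10 tested) summed to 148949 to 205152 in NB_FACS, 8663 to 25472 in A_FACS and 318 to 374 in cultured cells. Fibroblast markers (8 of 9 tested) summed to 18031 to 38710 in cultured cells and 1039 to 2291 in sorted ones, and border macrophage markers (9 of 9) to 44393 to 87667 in NB_Control, 19372 to 32779 in NB_Stim, 11487 to 14204 in NB_FACS and 359 to 853 in A_FACS. T and NK cell markers (6 of 10 tested) stayed between 1132 and 1489 on every array. Endothelial markers (10 of 10) summed to 6201 to 18155 in sorted cells and 1203 to 2580 in cultured ones, and oligodendrocyte lineage markers (4 of 8) to 8163 to 12329 in NB_Stim, 1219 to 1720 in NB_Control and 472 to 844 in sorted cells. Astrocyte markers (7 of 8) lay between 834 and 3834, neuronal markers (8 of 8) between 4250 and 7262, and neutrophil and monocyte markers (6 of 9) between 377 and 4955, the last range within NB_FACS alone. A sum is weighted towards bright genes and does not show that a whole list moved. Of the 9 border macrophage markers, 2 passed as higher and 3 as lower in NB_Control against NB_FACS (15.8% and 13.9% of all genes). Of the 4 oligodendrocyte lineage markers, 1 passed as higher and 0 as lower in NB_Stim against NB_Control (3.41% of all genes passed in either direction). These summed levels moved with the group, and their part in the values below was not tested. In bulk RNA, fewer cells of a type and less RNA per cell cannot be told apart.

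**Figure D1:**
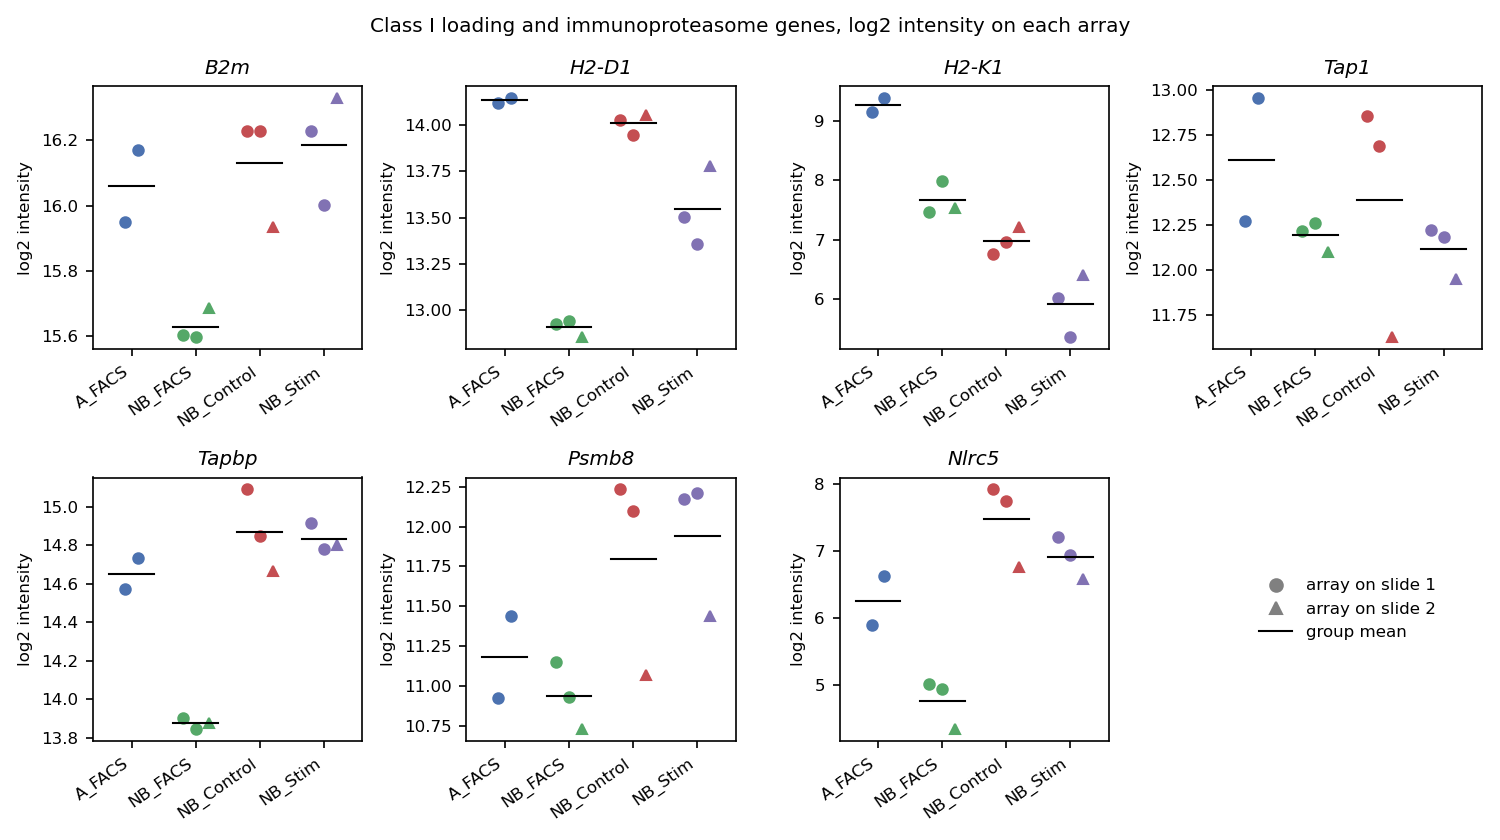
Log2 quantile-normalised intensity (vertical axis, its own range in each panel) of the 7 tested genes on each array, by group (horizontal axis). Circles are arrays on slide 1, triangles arrays on slide 2 and black lines group means. NB_FACS lies lowest for B2m, H2-D1, Tapbp and Nlrc5, with no overlap with the other groups, whereas NB_Stim lies lowest for H2-K1.

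B2m, the invariant light chain that every classical class I molecule needs, was lowest in sorted newborn cells. Its log2 intensity was 15.60, 15.60 and 15.69 on the NB_FACS arrays, 16.23, 16.23 and 15.93 in NB_Control, 16.23, 16.00 and 16.33 in NB_Stim, and 15.95 and 16.17 in A_FACS. No NB_FACS array reached any array of the other 3 groups, and those 3 overlapped each other. The readings of NB_Control replicates 1 and 2 and NB_Stim replicate 1 were identical, as quantile normalisation gives equal ranks equal values. How far this narrowed the spread was not tested. NB_Control was 1.42-fold above NB_FACS (log2 difference 0.50 ± 0.14 SE, limma adjusted p 0.0236). NB_Stim was 1.47-fold above it (0.56 ± 0.14, adjusted p 0.014). The adult difference of 0.43 ± 0.16 did not pass (adjusted p 0.0825). Without NB_FACS replicate 1 or 2, or without NB_Control replicate 1 or 2, the call for NB_Control was lost, and without NB_Stim replicate 1 that for NB_Stim was lost. The NB_Control call was also lost with cultured replicates 1 and 2 averaged and with the adjusted Tukey test, and its difference lay between 0.45 and 0.60 whichever array was left out.

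H2-D1, a classical heavy chain, rose in all 3 groups against sorted newborn cells. It stood at 12.93, 12.94 and 12.85 in NB_FACS, 14.03, 13.95 and 14.05 in NB_Control, 13.51, 13.36 and 13.78 in NB_Stim, and 14.12 and 14.15 in A_FACS. The order was A_FACS, NB_Control, NB_Stim and NB_FACS, with no overlap between any pair. The first 2 groups of that order differed by 0.12 ± 0.15 (adjusted p 0.541), which turned to -0.17 with 75th percentile scaling. Against NB_FACS the fold was 2.14 in NB_Control (1.1 ± 0.13, adjusted p 0.000192), 1.56 in NB_Stim (0.64 ± 0.13, 0.00465) and 2.33 in A_FACS (1.22 ± 0.15, 0.000432). These 3 calls held under every alternative that was run.

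H2-K1, the other classical heavy chain, was higher in adult cells, as H2-D1 was, but by its mean lowest in NB_Stim. Averaged over its 2 probes, it was 9.16 and 9.38 in A_FACS, 7.46, 7.99 and 7.53 in NB_FACS, 6.76, 6.96 and 7.21 in NB_Control, and 6.02, 5.35 and 6.41 in NB_Stim. The groups followed each other in that order without overlap. A_FACS was 3.05-fold above NB_FACS (1.61 ± 0.29, adjusted p 0.00393), a call lost with the adjusted Tukey test, and NB_Stim 3.33-fold below it (-1.74 ± 0.26, adjusted p 0.000803). NB_Control differed from NB_FACS by -0.68 ± 0.26, which did not pass (adjusted p 0.0804). That difference passed with normexp, with the brightest probe, with only the groups compared, on slide 1 taken alone, and without NB_Stim replicate 2 or 3, arrays that enter only the spread estimate. It lay between -0.80 and -0.52 over all arrays left out in turn.

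The H2-K1 average joined 2 probes that disagreed. MMXS08219 read 11.33 and 11.78 in A_FACS, 9.35, 9.68 and 8.35 in NB_FACS, 6.82, 6.86 and 6.78 in NB_Control, and 5.77, 5.05 and 5.81 in NB_Stim. MMXS00434, the probe with bases in common with H2-D1, read 6.99 and 6.98 in A_FACS, 5.57, 6.31 and 6.72 in NB_FACS, 6.71, 7.06 and 7.64 in NB_Control, and 6.26, 5.66 and 7.0 in NB_Stim. The first probe was lower at each step from adult to stimulated cells without overlap, whereas the second overlapped between NB_FACS and both cultured groups. In a fit over all 44727 probes, chosen after seeing the data, MMXS08219 was 4.95-fold lower in NB_Control than in NB_FACS (-2.31 ± 0.33, adjusted p 0.000738) and 5.39-fold higher in A_FACS (2.43 ± 0.37, adjusted p 0.00198). MMXS00434 gave 0.94 ± 0.39 (adjusted p 0.112) and 0.79 ± 0.44 (adjusted p 0.25) for the same comparisons. For NB_Stim against NB_FACS, MMXS08219 gave -3.58 ± 0.33 (adjusted p 5.56e-05) and MMXS00434 gave 0.11 ± 0.39 (adjusted p 0.865). Both probes were assigned through predicted transcript variants of H2-K1, so the gene-level value stands for 2 unlike readings and the transcript each one read is uncertain.

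**Figure D2:**
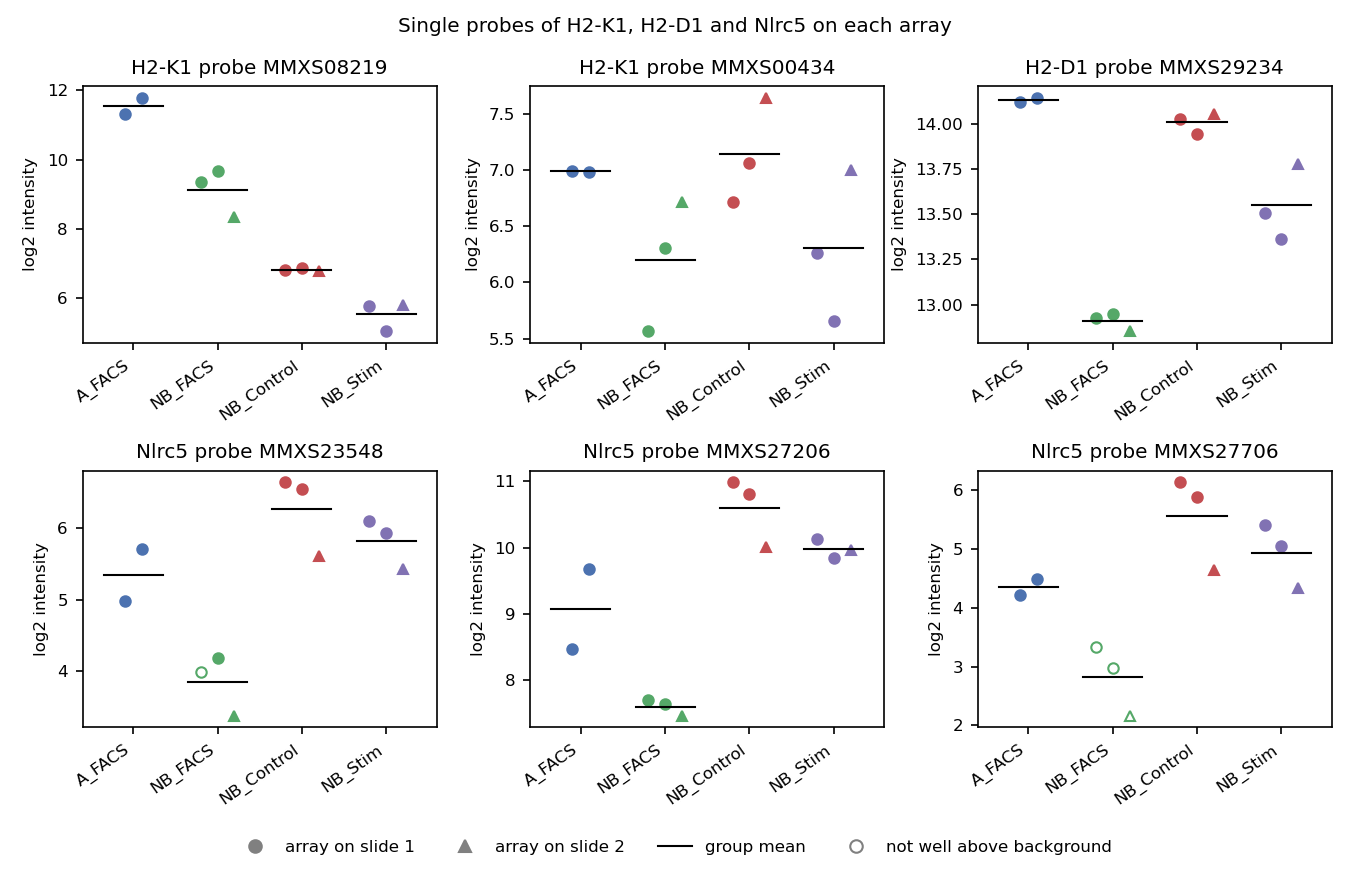
Log2 intensity (vertical axis, its own range in each panel) of single probes of H2-K1, H2-D1 and Nlrc5 on each array, by group (horizontal axis). Circles are slide 1, triangles slide 2, open symbols readings not well above background and black lines group means. The 2 H2-K1 probes differ in pattern, whereas all 3 Nlrc5 probes are lowest in NB_FACS.

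Tapbp (tapasin) behaved like B2m and H2-D1. It read 13.90, 13.85 and 13.88 in NB_FACS, 15.09, 14.85 and 14.67 in NB_Control, 14.92, 14.78 and 14.80 in NB_Stim, and 14.57 and 14.73 in A_FACS. Sorted newborn cells were lowest with no overlap, and the NB_Control arrays spanned the range of the cytokine-treated ones. The fold over NB_FACS was 1.99 in NB_Control (1.00 ± 0.14, adjusted p 0.000411), 1.94 in NB_Stim (0.96 ± 0.14, 0.000529) and 1.72 in A_FACS (0.78 ± 0.15, 0.0053). All 3 calls held under every alternative.

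For Tap1, a subunit of the peptide transporter, no comparison passed the test. Its values were 12.22, 12.26 and 12.10 in NB_FACS, 12.85, 12.69 and 11.63 in NB_Control, 12.22, 12.18 and 11.95 in NB_Stim, and 12.27 and 12.95 in A_FACS. NB_Control replicate 3, on slide 2, was the lowest of all 11 arrays, and replicates 1 and 2 of the same group lay above every newborn array outside it. The difference of NB_Control from NB_FACS was 0.19 ± 0.30 (95% interval -0.48 to 0.87, adjusted p 0.687). It was 0.53 on slide 1 and -0.48 on slide 2, the latter from 1 array a group. Leaving out NB_Control replicate 3 raised it to 0.58, and leaving out NB_Control replicate 1 turned it to -0.038, neither of which passed.

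Psmb8, which takes the place of Psmb5 in the immunoproteasome, was higher in cultured cells on most arrays. It read 11.16, 10.93 and 10.73 in NB_FACS, 12.23, 12.10 and 11.07 in NB_Control, 12.17, 12.21 and 11.44 in NB_Stim, and 10.93 and 11.44 in A_FACS. Replicate 3 was the lowest array of each newborn group. NB_Control exceeded NB_FACS by 0.86 ± 0.33, which did not pass (adjusted p 0.0771). With the replicate number as a block the same difference passed (adjusted p 0.0113), as did 7328 of all genes against 5811 in the main fit. The difference was 1.12 on slide 1 and 0.34 on slide 2. Without NB_Control replicate 3 it was 1.22 and passed. NB_Stim was 2.00-fold above NB_FACS (1.00 ± 0.33, adjusted p 0.0419), a call close to the threshold that was lost in 12 of 24 alternatives, among them leaving out any NB_FACS array, NB_Control replicate 2 or NB_Stim replicate 1 or 2. Psmb9, its neighbour in the class II region, was well above background on 1 of 11 arrays, A_FACS replicate 2, so no level or fold is given.

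The constitutive catalytic subunits were measured on the same arrays. Psmb5, the subunit that Psmb8 replaces, read 13.56, 13.65 and 13.80 in NB_FACS, 14.44, 14.53 and 14.46 in NB_Control, 14.32, 14.35 and 14.20 in NB_Stim, and 12.69 and 13.02 in A_FACS. Cultured cells were highest and adult cells lowest, without overlap between sorted and cultured cells. Psmb5 rose in NB_Control by 0.80 ± 0.13 (adjusted p 0.00129) and in NB_Stim by 0.62 ± 0.13 (adjusted p 0.00553), and fell in A_FACS by 0.82 ± 0.15 on the log2 scale (adjusted p 0.00361). Psmb6 also fell in A_FACS (-1.1 ± 0.15, adjusted p 0.000813), with 0.06 ± 0.13 in NB_Control (adjusted p 0.796). Psmb7 gave -0.65 ± 0.29 in A_FACS and -0.23 ± 0.26 in NB_Control, neither of which passed. Psmb8 itself gave 0.25 ± 0.37 in A_FACS (95% interval -0.57 to 1.06, adjusted p 0.685), and the difference between Psmb8 and its counterparts was not tested.

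**Figure D3:**
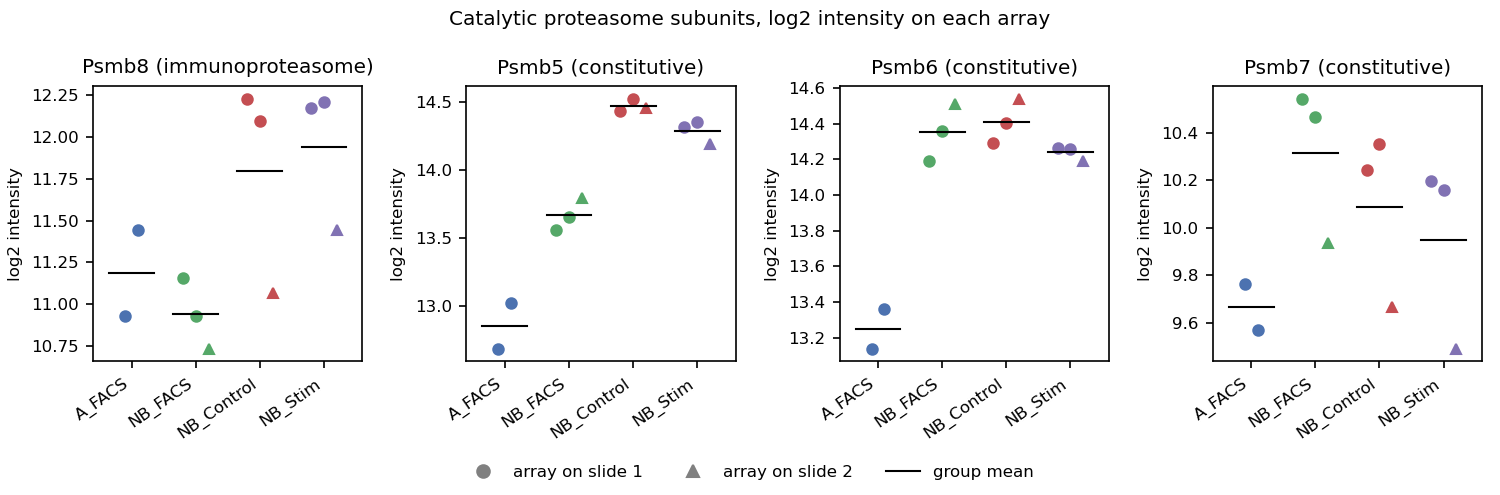
Log2 intensity (vertical axis, its own range in each panel, so that levels are not compared between genes) of Psmb8 and of the 3 constitutive catalytic subunits on each array, by group (horizontal axis). Circles are slide 1, triangles slide 2 and black lines group means. Psmb5 and Psmb6 are lowest in A_FACS without overlap, whereas the Psmb8 arrays of A_FACS and NB_FACS overlap.

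Nlrc5 was lowest in sorted newborn cells. Averaged over 3 probes, it read 5.01, 4.93 and 4.34 in NB_FACS, 7.92, 7.75 and 6.75 in NB_Control, 7.21, 6.94 and 6.57 in NB_Stim, and 5.89 and 6.62 in A_FACS. Every NB_FACS array lay below every other array, and NB_Control and NB_Stim overlapped. This average holds probe MMXS27706, not well above background on any NB_FACS array, so its fold depends on readings near background. The measured fold over NB_FACS was 6.56 in NB_Control (2.71 ± 0.34, adjusted p 0.000255), 4.44 in NB_Stim (2.15 ± 0.34, 0.00103) and 2.82 in A_FACS (1.5 ± 0.38, 0.0193). With normexp background correction the 3 log2 differences shrank to 1.4, 1.06 and 0.63. On slides 1 and 2 taken alone, the NB_Control difference was 2.86 and 2.42. The adult call was lost without A_FACS replicate 2 or NB_FACS replicate 3, with normexp background correction and with the adjusted Tukey test.

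The 3 Nlrc5 probes gave 2.42 ± 0.34, 2.99 ± 0.32 and 2.73 ± 0.44 for NB_Control against NB_FACS, and each passed in the fit over probes. MMXS27706 passed the filter through the other groups, and its difference is a bound against the lowest signal above background in NB_FACS. It was at least 3.98-fold higher in NB_Control, at least 2.58-fold in NB_Stim and at least 1.74-fold in A_FACS. The A_FACS difference of this probe did not pass in the limma fit over probes (adjusted p 0.0551). Another, MMXS23548, was not well above background on NB_FACS replicate 1, at 3.99, but was on NB_FACS replicate 3, at 3.38. The bounds for MMXS27706 depend on this flag. MMXS27206 was above background on all 11 arrays, and it alone was 7.97-fold higher than NB_FACS in NB_Control (adjusted p 0.000131), 5.19-fold in NB_Stim (0.00052) and 2.77-fold in A_FACS (0.0193).

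**Figure D4:**
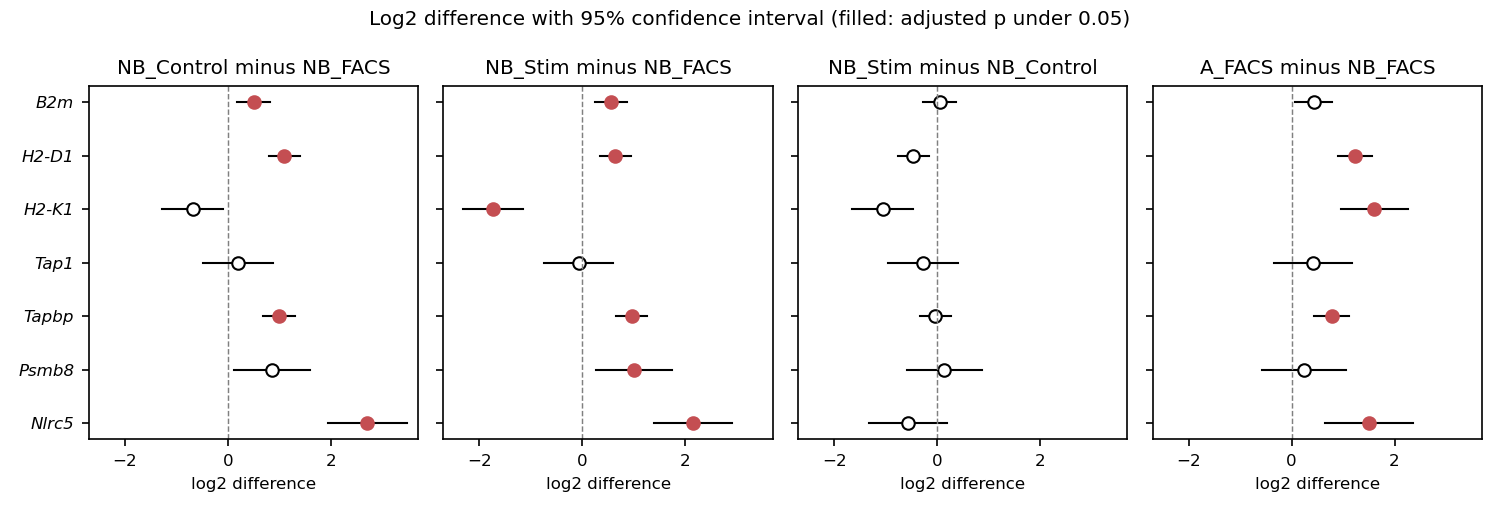
Log2 difference (horizontal axis) of the 7 tested genes (vertical axis) in 4 comparisons, with 95% confidence intervals from limma. Filled points passed at an adjusted p under 0.05, which was so for 4 genes in NB_Control minus NB_FACS, 6 in NB_Stim minus NB_FACS, 0 in NB_Stim minus NB_Control and 4 in A_FACS minus NB_FACS.

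In NB_Control against NB_FACS, 4 of the 7 tested genes passed, all higher (B2m, H2-D1, Tapbp and Nlrc5). Of all genes, 29.7% passed in this comparison and 15.8% passed as higher. The median log2 difference was 0.86 over the 7 genes and 0.09 over all genes. The arrays of the groups did not overlap for 5 of 7, against 44.2% of all genes. For 6 of the 7 the differences within slide 1 and within slide 2 had one sign, the exception being Tap1. H2-K1 and Psmb8, which had not passed, did so on slide 1 taken alone. There 8044 of the 19555 genes passed in this comparison, against 5811 in the main fit.

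Added cytokines were tested by NB_Stim against NB_Control. None of the 7 genes passed limma's adjusted p, while 3.41% of all genes did. H2-K1 (-1.05 ± 0.26, adjusted p 0.0662) and H2-D1 (-0.46 ± 0.13, adjusted p 0.108) were lower in every NB_Stim array than in any NB_Control array, and for 24% of all genes the groups did not overlap. They had unadjusted p of 0.00266 and 0.00615, where 15.2% of genes had an unadjusted p under 0.05. With the slide as a block both passed (adjusted p 0.0353 and 0.0435), as did 1475 of all genes against 666 in the main fit. On slides 1 and 2 the differences were -1.18 and -0.80 for H2-K1 and -0.55 and -0.27 for H2-D1. Without NB_Stim replicate 3 both passed as well, but H2-K1 did not pass in 20 of 24 alternatives, nor H2-D1 in 18 of 24. The missing overlap of H2-K1 is that of its probe average. In the limma fit over probes MMXS08219 gave -1.28 ± 0.33 (adjusted p 0.0908). MMXS00434, whose arrays overlapped, gave -0.83 ± 0.39 (adjusted p 0.396). For the other 5 genes the differences lay between -0.56 (Nlrc5, 95% interval -1.33 to 0.20) and 0.14 (Psmb8, -0.59 to 0.87). The interval for Tap1 ran from -0.95 to 0.41, whereas those for B2m (-0.26 to 0.37) and Tapbp (-0.34 to 0.27) were narrower.

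Against sorted newborn cells, NB_Stim was higher for 5 of 7 (B2m, H2-D1, Tapbp, Psmb8 and Nlrc5) and lower for 1 (H2-K1), where 31.1% of all genes passed, 16% higher and 15.1% lower. The arrays did not overlap for 6 of 7, against 43.5% of all genes. The median was 0.64 over the 7 genes and 0.11 over all. NB_Control and NB_Stim were set against the same 3 NB_FACS arrays, so these counts are not independent of those for NB_Control. The H2-K1 fall in NB_Stim rested on probe MMXS08219, since MMXS00434 gave 0.11 ± 0.39.

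Adult cells were higher than newborn cells for 4 of 7 (H2-K1, H2-D1, Tapbp and Nlrc5) and lower for 0, where 22.7% of all genes passed and 9.76% passed as higher. The arrays did not overlap for 6 of 7, against 51.2% of all genes. The median was 0.78 over the 7 genes and -0.01 over all. A_FACS held 2 arrays, both on slide 1, where the differences from NB_FACS were 1.54 for H2-K1, 1.20 for H2-D1, 0.78 for Tapbp and 1.29 for Nlrc5. Against NB_Control, 2 of 7 passed in A_FACS (40.8% of all genes, 17.6% higher and 23.2% lower), with H2-K1 4.90-fold higher (2.29 ± 0.29, adjusted p 0.000237) and Nlrc5 2.32-fold lower (-1.22 ± 0.38, 0.0283). The Nlrc5 call was lost in 7 of 24 alternatives, among them leaving out A_FACS replicate 1 or NB_Control replicate 1 or 2. Against NB_Stim, 2 of 7 passed (40.3% of all genes, 17.5% higher), with H2-K1 10.2-fold higher (3.35 ± 0.29, adjusted p 2.85e-05) and H2-D1 1.5-fold higher (0.58 ± 0.15, 0.011). Leaving out either A_FACS array lost that H2-D1 call. Probe MMXS08219 carried the adult H2-K1 excess, since MMXS00434 gave -0.15 ± 0.44 against NB_Control and 0.68 ± 0.44 against NB_Stim.

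Other class I and class I-like heavy chains were described by a list of 22 genes, of which 13 were tested. In NB_Control against NB_FACS 5 rose and 1 fell, with a list median of 0.32. As a background for this and the following lists, 15.8% of all genes rose and 13.9% fell in that comparison (median 0.09), 16% rose and 15.1% fell in NB_Stim against NB_FACS (median 0.11), 9.76% rose and 12.9% fell in A_FACS against NB_FACS (median -0.01), and 3.41% passed in either direction between NB_Stim and NB_Control. The rises included the non-classical chains H2-T10 (1.79 ± 0.27, adjusted p 0.000763), and H2-T23, whose product Qa-1 is a ligand of NK cell receptors (1.65 ± 0.19, 0.000145). H2-T22 was called higher too, but it was well above background on 1 of 3 NB_FACS arrays, so no size is given. H2-Q4 fell by 1.49 on the log2 scale (adjusted p 0.0148). In A_FACS 3 rose and 0 fell, namely H2-T10 (1.33 ± 0.30), H2-T23 (1.57 ± 0.21) and H2-Bl (1.16 ± 0.15). Between NB_Stim and NB_Control 1 passed, H2-Bl, which fell by 0.61 (adjusted p 0.0367), and against NB_FACS NB_Stim had 4 higher and 2 lower.

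Other genes of the peptide loading complex and chaperones of the endoplasmic reticulum were called in few cases. Of 14 genes tested, 1 rose and 2 fell in NB_Control against NB_FACS, with a median of -0.03, against 15.8% higher and 13.9% lower of all genes. The lectin chaperones Calr (0.09 ± 0.17) and Canx (-0.03 ± 0.19) and the disulfide isomerase Pdia3 (-0.19 ± 0.18) did not pass. Hspa5 (BiP), the general chaperone of the endoplasmic reticulum, fell by 0.75 in NB_Control (adjusted p 0.00226) and rose in A_FACS by 1.03 ± 0.15 (adjusted p 0.00128). In A_FACS 2 of the 14 rose and 2 fell. Tapbpl, a relative of tapasin, was well above background on 0 NB_FACS and 1 NB_Control array and has no fold.

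Of 9 peptide trimming enzymes tested, 4 fell, 1 rose and 4 did not pass in NB_Control against NB_FACS, where 13.9% of all genes fell. The list median was 0.00. Erap1, which trims peptides in the endoplasmic reticulum, fell by 0.85 in NB_Control (adjusted p 0.0162) and fell by 1.23 in NB_Stim (adjusted p 0.00227). The cytosolic aminopeptidase Lap3 fell by 1.08 in NB_Control (adjusted p 0.0022), and Dpp8, a dipeptidyl peptidase, rose by 0.93 (adjusted p 0.000202). In A_FACS 1 of 9 passed, the bleomycin hydrolase Blmh, which fell by 1.01.

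The calls among other proteasome genes in A_FACS against NB_FACS were falls, and many of these genes did not pass. Of 12 other 20S core subunits 7 fell and 0 rose in A_FACS against NB_FACS, with a median of -0.67, and of 18 subunits of the 19S regulatory particle 8 fell and 0 rose, with a median of -0.44, where 12.9% of all genes fell. The other 5 core and 10 regulatory subunits did not pass. Psma5 fell by 1.05 and Psmb2 fell by 1.0. Of 9 activator and assembly genes 3 fell and 0 rose in A_FACS, among them the chaperone gene Psmg4 (-1.08 ± 0.18, adjusted p 0.0024), and 1 rose and 1 fell in NB_Control. The interferon-inducible activator subunits Psme1 (-0.13 ± 0.18, adjusted p 0.662) and Psme2 (-0.74 ± 0.17, 0.013) did not rise in adult cells, and Psme2 fell. In NB_Control against NB_FACS 1 of 12 core subunits rose and 0 fell, and 2 of 18 regulatory subunits rose and 2 fell. Psme1 (0.34 ± 0.16) and Psme2 (-0.13 ± 0.15) did not pass there.

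Regulators of class I transcription split. Of 19 tested, 4 rose and 7 fell in NB_Control, and 6 rose and 1 fell in A_FACS. The interferon-activated factor Stat2 rose in NB_Control (1.76 ± 0.18, adjusted p 7.81e-05). Irf1, an interferon-induced activator of class I genes, gave 0.20 ± 0.19 in NB_Control (adjusted p 0.495) and rose in A_FACS (1.12 ± 0.22, 0.00524). Rfx5, a subunit of the factor that Nlrc5 joins at class I promoters, was well above background on 1 NB_FACS array, and its differences of 0.46 ± 0.35 in NB_Control and 0.93 ± 0.39 in A_FACS did not pass. Nfkb1, a subunit of NF-kappaB, fell by 2.45 in NB_Control. Ezh2, the methyltransferase of Polycomb silencing, fell by 2.66 in NB_Control and in A_FACS it fell by 2.36.

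Interferon-stimulated genes outside the class I pathway moved alongside in culture. Of 20 tested, 13 rose and 2 fell in NB_Control against NB_FACS (median 1.51), 8 rose and 2 fell in NB_Stim against NB_FACS, and 5 rose and 1 fell in A_FACS (median 0.46), beside 15.8%, 16% and 9.76% of all genes that rose. Oasl2 (3.93 ± 0.48, adjusted p 0.000204) and Oas1a (3.09 ± 0.37, 0.000191), both of the antiviral oligoadenylate synthetase family, led the rises in NB_Control. Going the other way, the chemokine gene Cxcl10 fell by 7.31 on the log2 scale in NB_Control (adjusted p 2.01e-06) and the guanylate-binding gene Gbp5 fell by 1.04 (adjusted p 0.000284). In A_FACS the GTPase gene Iigp1 was at least 5.05-fold above NB_FACS, where it was not well above background on any array. Between NB_Stim and NB_Control 1 of 20 passed, Oas2, which fell by 1.5 (adjusted p 0.0409), with a list median of -0.67. Averaged over the 20 genes and centred, the list stood at 0.82, 0.63 and 0.31 on the NB_Control arrays and at -0.23, -0.44 and 0.41 on the NB_Stim arrays, so NB_Stim replicate 3 lay inside the control range. NB_Control and NB_Stim share their reference arrays here too.

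Interferon receptors, kinases and their restraint moved in both directions. Of 11 tested, 2 rose and 3 fell in NB_Control against NB_FACS (median -0.08), and 4 rose and 1 fell in A_FACS (median 0.40). Usp18, which restrains interferon receptor signalling, rose by 3.51 ± 0.45 in NB_Control (adjusted p 0.000276) and by 2.34 ± 0.50 in A_FACS (adjusted p 0.00856). The receptor kinase gene Jak2 fell by 1.73 in NB_Control (adjusted p 7.46e-05). Ifnb1 (interferon beta) was called lower in NB_Control, where it was well above background on 1 of 3 arrays, so no size is given. Of 7 class II presentation genes, 2 rose and 0 fell in A_FACS, H2-Aa (4.14 ± 0.86, adjusted p 0.00733) and H2-DMb1 (1.61 ± 0.37, adjusted p 0.0117). In NB_Control 1 of the 7 passed, the invariant chain gene Cd74, which fell by 3.23 (adjusted p 0.00804).

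**Figure D5:**
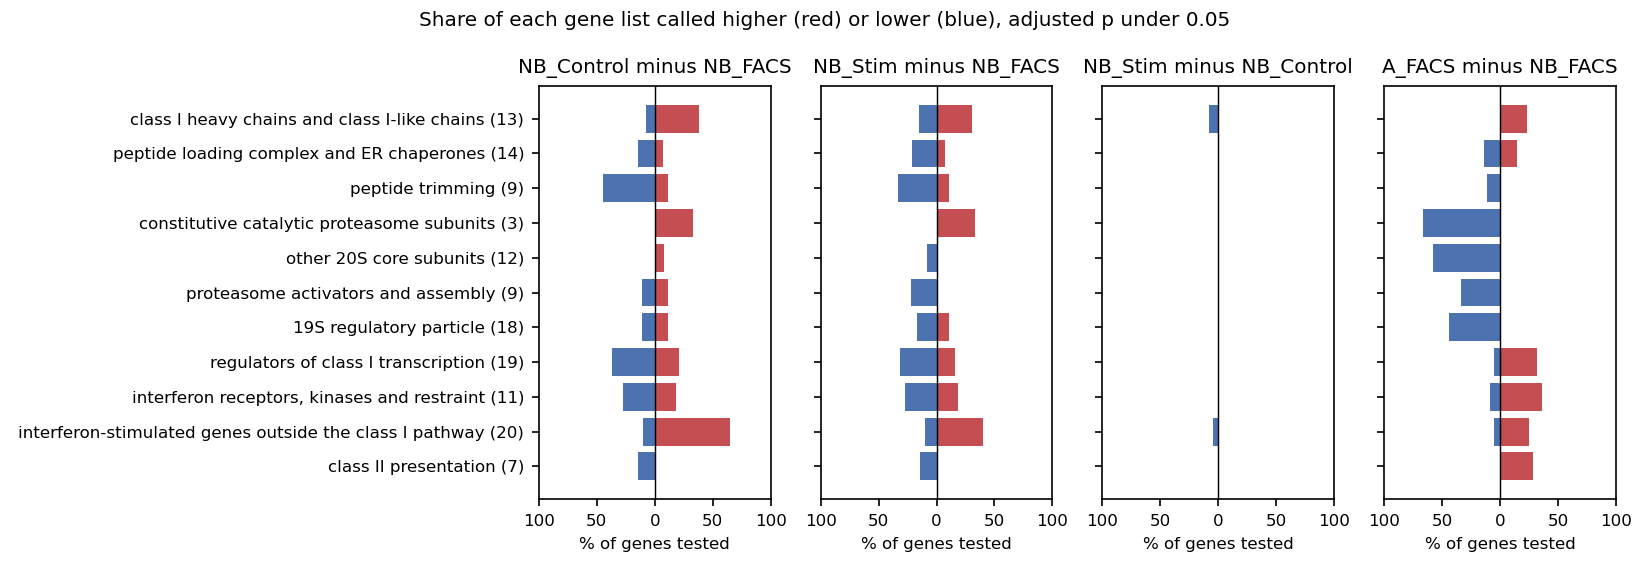
Share of the tested genes of 11 lists (vertical axis, number tested in brackets) that passed at an adjusted p under 0.05, in % (horizontal axis), in 4 comparisons. Bars to the right (red) are genes that rose and bars to the left (blue) genes that fell. Interferon-stimulated genes have their highest share of rises in NB_Control minus NB_FACS, and the constitutive, 20S and 19S proteasome lists hold only falls among their calls in A_FACS minus NB_FACS.

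The genes whose levels ran most like the mean of the 7 members over the 11 arrays were Igtp (Pearson r 0.966), Phf11b (0.961), 1700030K09Rik (0.955), Fam167b (0.953) and Ccdc181 (0.952). Igtp codes for an interferon-inducible GTPase. Its group means were 9.01 in NB_FACS, 10.54 in NB_Control, 10.03 in NB_Stim and 10.88 in A_FACS. Among the members, each of which is itself part of the members' mean, H2-D1 followed that mean best (0.891) and H2-K1 least (0.138). The 5 genes named first were chosen as the highest of all genes that are not members. The arrays share groups and slides, and no test was run on these values.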

How the data were processed

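Total RNA of 11 mouse microglia samples was measured on single-colour Agilent arrays. The authors deposited scanner files whose signal intensity per spot was background-subtracted by Feature Extraction (11.5.1.1 in the file headers, 11 in the submitters' processing notes) and not normalised between arrays. Those in the deposited series matrix were the same, with 0 differing beyond a relative tolerance of 1e-05.

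Here spots of a probe were averaged without outlier flags, log2 was taken of the deposited intensity, and all probes were quantile normalised in limma 3.58.1 (R 4.3.3, with data.table version 1.17.8), as the methods name quantile normalisation. Probes were kept if some group had them well above background on all its arrays (44727 probes). Symbols and promoter windows came from RefSeq annotation of GRCm38.p6, and probes of a gene were averaged to 19555 genes. One mean per group was fitted over all 11 arrays (7 residual degrees of freedom), p-values were two-sided and Benjamini-Hochberg adjusted over all genes per comparison, and the threshold for a call was 0.05. Intervals cover 95%. The fit was tested on simulated data. Array number, not depth, limits precision, and replicate p-values measure the spread between these samples only.

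Members and gene lists were chosen with earlier results of these data known. Named genes were drawn from all 10 members, 14 fixed pathway genes (of which Irf8 had no matched probe and was not analysed here, and 1 is not reported here), up to 2 rises and 2 falls per list and comparison with the largest change among called genes, and the 5 genes most like the members' mean. H2-T23 in NB_Control and H2-Bl in A_FACS fell outside that rule and were named after their values were seen. Groups and replicate numbers were taken from sample titles. Same-numbered newborn arrays deviated together from their group means (every correlation was 0.112 or above). Replicate 3 was the slide 2 array of each newborn group, so these correlations cannot tell a pairing of samples from the slide. The labels give no pairing. For A_FACS arrays and same-numbered newborn arrays the correlations ran from -0.07 to 0.17, a range that overlaps that of the newborn arrays. Alternatives covered scaling, background correction, filters, probe choice, blocks by replicate and slide, slide 1 alone, the methods' Tukey test and each array left out, and, added after seeing the data, single probes. A run on the series matrix values also counts among the alternatives, although these equal the scanner values, so that run could not differ. Figures were drawn with matplotlib 3.10.9 under Python.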

Additional observations from a re-analysis of the deposited data

How the results depend on the processing

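Of 546 member differences under settings other than leaving out an array, 495 kept their direction and side of the threshold, as did 427 of 462 with 1 array left out. The 495 include a run on the deposited series values, which equal those used here, so its agreement was fixed in advance. The number of the 7 members called in NB_Stim minus NB_Control went from 0 to 1 with 75th percentile scaling, normexp, probes above background on all arrays, or slide 1 only, and to 2 with the slide block or the Tukey test at the methods' threshold. All genes called there went from 666 to 906 with 75th percentile scaling, 1009 with normexp and 730 with probes above background on all arrays. They went to 1032 on slide 1 only, 1475 with the slide block and 1589 at the methods' threshold. The number of members called went from 4 to 2 in A_FACS minus NB_FACS with the adjusted Tukey test. In A_FACS minus NB_Control it went from 2 to 1 with only the groups compared, cultured replicates 1 and 2 averaged, or either Tukey count. In A_FACS minus NB_Stim it went from 2 to 1 with only the groups compared or those replicates averaged. It went to 4 there with the replicate block, the slide block or slide 1 only. All genes called there went from 7871 to 9796, 10202 and 10877 under the same settings. With 1 array left out the member counts ranged over 3 to 5 in NB_Control minus NB_FACS, 0 to 2 in NB_Stim minus NB_Control, 4 to 6 in NB_Stim minus NB_FACS, 3 to 4 in A_FACS minus NB_FACS, 1 to 3 in A_FACS minus NB_Control and 1 to 3 in A_FACS minus NB_Stim. The replicate block groups arrays by replicate number, which is not known to pair samples. It left the member count at 0 in NB_Stim minus NB_Control and, beside Psmb8 as given, changed no other newborn call of a member.

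Small differences that had not passed turned sign without passing. Tap1 in NB_Control minus NB_FACS ranged from -0.038 (without NB_Control replicate 1) to 0.58 with single arrays left out, in NB_Stim minus NB_FACS from -0.13 to 0.0086 (without NB_Stim replicate 3), and in A_FACS minus NB_Control from -0.16 (without NB_Control replicate 3; -0.12 without A_FACS replicate 2) to 0.57, and it was -0.036 there with 75th percentile scaling and -0.16 on slide 1 only. In NB_Stim minus NB_Control, B2m ranged from -0.043 (without NB_Control replicate 3; -0.016 without NB_Stim replicate 3) to 0.15, with -0.11 on slide 1 only. In the same comparison Tapbp ranged from -0.14 to 0.073 (without NB_Control replicate 1), with 0.0054 when cultured replicates were averaged, and Psmb8 from -0.22 (without NB_Control replicate 3) to 0.39, with -0.13 under 75th percentile scaling. Psmb8 in A_FACS minus NB_FACS ranged from -0.011 (without A_FACS replicate 2) to 0.50, B2m in A_FACS minus NB_Control from -0.18 to 0.039 (without A_FACS replicate 1), and H2-D1 turned to -0.17 there with 75th percentile scaling. Larger H2-K1 differences, some of them called, also turned sign with probe MMXS00434 alone, an alternative chosen after seeing the data. It gave 0.94 in NB_Control minus NB_FACS, where the main difference of -0.68 had not passed. In NB_Stim minus NB_FACS it gave 0.11, where the main difference of -1.74 had been called. In A_FACS minus NB_Control it gave -0.15, where the main difference of 2.29 had been called. The cause was not tested.

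Over all genes, 666 calls in NB_Stim minus NB_Control became 1009 with normexp, 1196 with the replicate block, 1475 with the slide block, 1032 on slide 1 only, 117 with cultured replicates averaged, 183 with the adjusted Tukey test, 1589 at the methods' threshold and 304 without NB_Stim replicate 1. The adjusted Tukey test gave 3545 of 5811 in NB_Control minus NB_FACS, 3619 of 6083 in NB_Stim minus NB_FACS, 2014 of 4436 in A_FACS minus NB_FACS, 4882 of 7981 in A_FACS minus NB_Control and 4655 of 7871 in A_FACS minus NB_Stim. In A_FACS minus NB_FACS the count was 2923 with only the groups compared and 2456 without A_FACS replicate 1, which also gave 5189 against NB_Control and 4890 against NB_Stim. Cultured replicates 1 and 2 lay closest to each other (SD of log2 differences 0.26 and 0.29, against 0.39 to 0.70 elsewhere).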
